A study of Homo sapiens with 12 samples.

Results

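The glycolysis enzymes described here were 10 genes, chosen by name from the pathway from glucose to lactate, of 57353 gene names in the counts table: HK2, GPI, PFKP, ALDOA, TPI1, GAPDH, PGK1, ENO1, PKM and LDHA. They were measured by RNA-seq in MOLM-13, an established human acute myeloid leukemia (AML) line that carries an internal tandem duplication of the receptor tyrosine kinase FLT3. The 12 libraries fell into 4 groups of 3: RPMI vehicle, RPMI quizartinib, hBMSC-CM vehicle and hBMSC-CM quizartinib, all taken after 15 hr, with the FLT3 inhibitor quizartinib at 3 nM. The vehicle was DMSO. RPMI, called plain medium below, is unconditioned culture medium with serum. hBMSC-CM is an equal mix of RPMI and medium conditioned by HS-5, a human bone marrow stromal cell line. The leukemia cells thus met what stromal cells secrete and not the stromal cells themselves. All groups share 1 cell line, and the comparisons ask how FLT3 inhibition and conditioned medium, alone and together, change transcript levels. Whether glucose and lactate differed between the media was not tested. Nothing in the labels says that the replicates came from separate cultures on separate days, so p-values measure the spread between these libraries.

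Glycolysis converts glucose to pyruvate in the cytosol and yields ATP and NADH, and lactate dehydrogenase regenerates NAD+ by turning pyruvate into lactate. Hexokinase traps glucose in the cell, phosphofructokinase sets the committed step and pyruvate kinase closes the pathway, and these steps are in practice irreversible, whereas the others run near equilibrium. Proliferating leukemia cells use glycolysis heavily, both for ATP and for the intermediates that feed nucleotide, serine and lipid synthesis, and growth factor receptors such as FLT3 are upstream of the transcription of several of these enzymes.

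All 10 enzymes fell with quizartinib in RPMI and all 10 fell in hBMSC-CM, but 7 of them fell less in hBMSC-CM. Of the 12998 genes tested, 39.4% were called lower with quizartinib in RPMI and 33.6% in hBMSC-CM, at adjusted p under 0.05. For 26.4% the log2 change in hBMSC-CM minus that in RPMI was called positive. The library totals ran from 19966546 to 31546104 counts, and the values below are CPM, the count of a gene relative to the scaled library total, with TMM factors from 0.956 to 1.04. At these depths 3 counts, the limit used for a gene without counts, correspond to 0.0951 to 0.150 CPM, and all 10 enzymes lay far above that and passed the filter on low counts. CPM are relative to all RNA in the library, so a general loss of RNA per cell or of cells does not show in them. Every change below is relative to the rest of the RNA. The share of mitochondrially encoded counts also moved with the groups: it was 0.727% ± 0.0563, 1.05% ± 0.0466, 0.511% ± 0.0888 and 0.856% ± 0.150 (SD, n = 3) in RPMI vehicle, RPMI quizartinib, hBMSC-CM vehicle and hBMSC-CM quizartinib, and its part in the results was not tested. Of the 12 stromal markers searched (among them the collagen, fibronectin and decorin genes), 6 had no count in any library, and the summed level of the list was 1.30 to 1.75, 5.56 to 6.47, 0.997 to 1.71 and 2.11 to 2.49 CPM in the same order of groups. The 6 AML markers, which include PTPRC (CD45) and LYZ (lysozyme), were all expressed and summed to 906 to 955, 1504 to 1537, 1040 to 1078 and 1726 to 1892 CPM. With quizartinib in RPMI, 4 of them were called higher and 2, CD33 and MPO, lower (39.8% and 39.4% of all tested genes). FLT3, also in this list, stood at 209 ± 3.30, 451.5 ± 9.53, 113 ± 3.36 and 157 ± 6.12 CPM (SD, n = 3) in the same order of groups.

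The promoters of these genes are known for E-box and hypoxia response elements, so the 250 bases upstream of each RefSeq start (GRCh38.p14) were searched on both strands for CACGTG, the E-box, and for ACGTG, the core of the hypoxia response element, which every CACGTG contains. All 10 genes matched, with 18 promoter windows. CACGTG was found in 4 of the 18 windows (22.2%) and in 6.34% of 35116 promoter windows of all genes, and ACGTG in 11 of the 18 (61.1%) and 18.5% of all. By gene, 4 of the 10 enzymes had a CACGTG and 8 an ACGTG in at least 1 window. The 4 were HK2, ALDOA, GAPDH and LDHA, and of these ALDOA and GAPDH were not called between the media under quizartinib. The windows shown, of LDHA, PGK1 and HK2, were picked for their separate matches and not for the response of the gene. The first HK2 window, not shown, held as many as the second. Capitals mark ACGTG read on either strand, with the full CACGTG in capitals where it occurs. A match describes letters only and no factor was measured on them.
LDHA: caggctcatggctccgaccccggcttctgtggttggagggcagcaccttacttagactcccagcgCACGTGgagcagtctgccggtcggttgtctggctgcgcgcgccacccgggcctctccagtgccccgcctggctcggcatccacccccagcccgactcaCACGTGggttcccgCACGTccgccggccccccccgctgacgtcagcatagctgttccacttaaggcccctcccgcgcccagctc
PGK1: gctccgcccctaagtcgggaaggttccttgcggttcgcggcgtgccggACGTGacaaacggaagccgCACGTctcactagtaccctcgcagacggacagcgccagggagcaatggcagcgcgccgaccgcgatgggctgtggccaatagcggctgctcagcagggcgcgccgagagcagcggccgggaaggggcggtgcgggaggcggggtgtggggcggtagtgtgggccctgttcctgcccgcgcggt
HK2: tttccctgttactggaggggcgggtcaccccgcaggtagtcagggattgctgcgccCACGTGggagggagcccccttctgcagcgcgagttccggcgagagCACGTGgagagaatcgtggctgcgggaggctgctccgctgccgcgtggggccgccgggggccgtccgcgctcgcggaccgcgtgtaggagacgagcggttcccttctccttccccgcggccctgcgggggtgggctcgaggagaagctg
The LDHA sequence (GRCh38.p14, chr11:18394313-18394559, plus strand) is printed up to the first annotated exon, at 247 of the 250 bases searched, and held 3 separate matches. The PGK1 sequence (chrX:78103998-78104247, plus strand) held 2 and lay inside the annotated span of the gene, which also has starts further upstream. The HK2 sequence (chr2:74834920-74835169, plus strand) held 2 and belongs to the second of its RefSeq starts, inside the gene and outside annotated exons. The windows of ENO1 and PKM, which moved with these genes, held neither motif.

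The order of the 10 transcript levels, scaled by the length of the canonical transcript, was the same in all 4 groups: GAPDH, ENO1, PKM, TPI1, LDHA, PGK1, PFKP, GPI, HK2 and ALDOA from the highest to the lowest. In RPMI vehicle the level ran from 4097 ± 181 CPM per kb (SD, n = 3) for GAPDH to 16.8 ± 0.993 for ALDOA, a 244-fold span. GAPDH lay 2.93-fold above ENO1 in RPMI vehicle and 7.17-fold above it in RPMI quizartinib. The libraries of neighbours in this order did not overlap, except for HK2 and ALDOA in RPMI quizartinib, at 12.6 ± 0.648 and 11.9 ± 1.71 CPM per kb. The order per kb therefore did not change with either treatment, while the distances between the levels did. Without length scaling the order did change. In CPM, PFKP was above GPI in RPMI vehicle (303 and 183) and below it in RPMI quizartinib (95.6 and 113.6). ENO1 was likewise above PKM in RPMI vehicle (2493 and 2078 CPM) and below it in RPMI quizartinib (875 and 911 CPM).

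**Figure D1:**
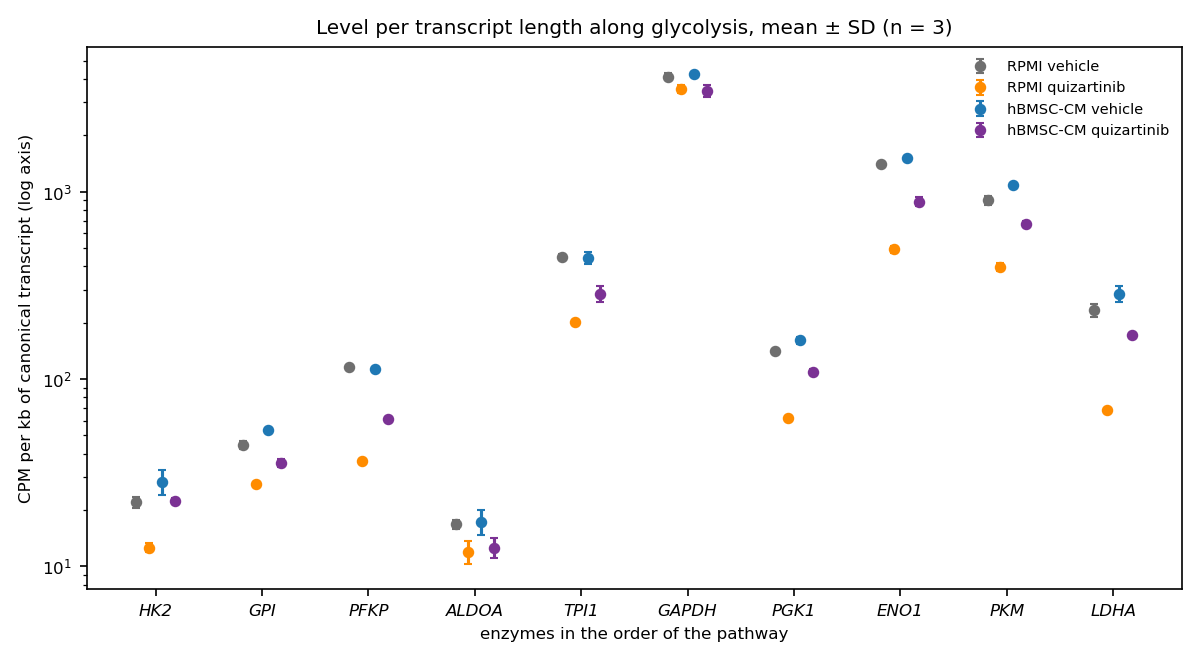
Level of each enzyme transcript in CPM per kb of the canonical transcript (log axis) against the enzymes in pathway order; points are group means of 3 libraries and bars the SD. GAPDH, ENO1 and PKM are the highest in every group, and RPMI quizartinib (orange) is below both vehicle groups for every enzyme.

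Together the 10 enzymes held 1.19% ± 0.0397 of all counts in RPMI vehicle (SD, n = 3), 0.760% ± 0.0294 in RPMI quizartinib, 1.29% ± 0.0167 in hBMSC-CM vehicle and 0.960% ± 0.0381 in hBMSC-CM quizartinib. Much of this is GAPDH. Without it the share was 0.682% in RPMI vehicle, 0.291% in RPMI quizartinib, 0.761% in hBMSC-CM vehicle and 0.503% in hBMSC-CM quizartinib.

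The first comparison asked what quizartinib did in plain medium. All 10 enzymes were lower, by log2 fold changes from -1.78 (LDHA) to -0.22 (GAPDH), with a median of -1.17 beside 0.02 over the 12998 genes tested. In this comparison 39.4% of all tested genes were called lower and 39.8% higher (edgeR quasi-likelihood test, Benjamini-Hochberg adjusted p under 0.05), so that a call by itself is common here and the size of the change tells more than the count of calls. The share of all genes whose libraries separated without overlap is not given, so such separation is only described below. LDHA, ENO1 and PFKP fell most, to 29.2%, 35.1% and 31.5% of the vehicle level, and GAPDH least, to 86.1%.

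LDHA makes lactate from pyruvate. It stood at 566, 477 and 522 CPM in the 3 RPMI vehicle libraries and at 154, 152 and 151 CPM in the RPMI quizartinib libraries. The groups did not overlap, and the treated libraries lay close together (152 ± 1.15 CPM, SD, n = 3). The log2 fold change was -1.78 ± 0.07 (SE; edgeR, adjusted p = 2.92e-16). PFKP, the platelet-type phosphofructokinase, stood at 301, 302 and 306 CPM with vehicle and at 93.3, 94.5 and 99.0 CPM with quizartinib. Its change of -1.67 ± 0.04 had the smallest SE of the 10 (edgeR, adjusted p = 3.44e-19). ENO1, the enolase that forms phosphoenolpyruvate, went from 2579, 2453 and 2446 CPM to 838, 872 and 916 CPM, a change of -1.51 ± 0.05 (edgeR, adjusted p = 9.15e-17).

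PKM, pyruvate kinase, PGK1, which makes the first ATP of the pathway, and TPI1, which interconverts the triose phosphates, formed a middle group. PKM fell from 2198, 1963 and 2073 CPM to 865, 919 and 949.5 CPM, by 1.19 ± 0.05 on the log2 scale (edgeR, adjusted p = 4.83e-15). The counts are per gene, so the M1 and M2 isoforms of PKM cannot be told apart here. PGK1 fell from 693, 667 and 669 CPM to 296.5, 294 and 301 CPM, by 1.19 ± 0.04 (edgeR, adjusted p = 3.81e-16), and TPI1 from 629.8, 595 and 589 CPM to 263, 271 and 278 CPM, by 1.16 ± 0.06 (edgeR, adjusted p = 1.61e-13). In all 3 genes every treated library was below every vehicle library.

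HK2, GPI, ALDOA and GAPDH had the smaller changes. HK2, the inducible hexokinase, fell from 129, 114 and 129 CPM to 69.5, 75.1 and 68.2 CPM, by 0.80 ± 0.08 on the log2 scale (edgeR, adjusted p = 5.57e-09). GPI, the glucose-6-phosphate isomerase, fell from 192, 174 and 184 CPM to 109.7, 115 and 116 CPM, by 0.69 ± 0.05 (edgeR, adjusted p = 1.06e-11). GAPDH, which carries out the step that yields NADH and often serves as a reference gene, stood at 5531, 5165 and 5098 CPM with vehicle and at 4283, 4566 and 4744 CPM with quizartinib. Its change of -0.22 ± 0.06 passed the test (edgeR, adjusted p = 0.00204), but with upper-quartile scaling it was -0.11 and did not (adjusted p = 0.0774). Upper-quartile scaling shifted the median of all genes by 0.106 in this comparison, and of the GAPDH transcript 32.8% overlaps an annotated gene on the opposite strand, with the strand setting of the counting not stated.

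ALDOA, the aldolase of muscle and most proliferating cells, was the least certain member. It had 29.4, 26.6 and 26.6 CPM with vehicle and 16.8, 19.5 and 22.4 CPM with quizartinib in RPMI, from 436 to 861 counts a library, and changed by -0.50 ± 0.11 (edgeR, adjusted p = 2.00e-04). Of its canonical transcript 89.8% is shared with another annotated gene on the same strand, ENSG00000285043, and gene counting with STAR assigns a read only where it meets a single gene. The overlaps were read from a later annotation than the one used for counting, and the row of the overlapping gene was not matched in the counts table. The level of ALDOA is therefore uncertain, and its place at the bottom of the order with it. The corresponding overlap was 13.1% for GPI, 4.57% for PFKP and 0 for the other 7. Rows named as pseudogenes of the members held at most 3.17% of the parent's counts in any library (TPI1), 1.90% for HK2 and 0.691% for GAPDH, whose 62 pseudogene names had counts in 26 cases.

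**Figure D2:**
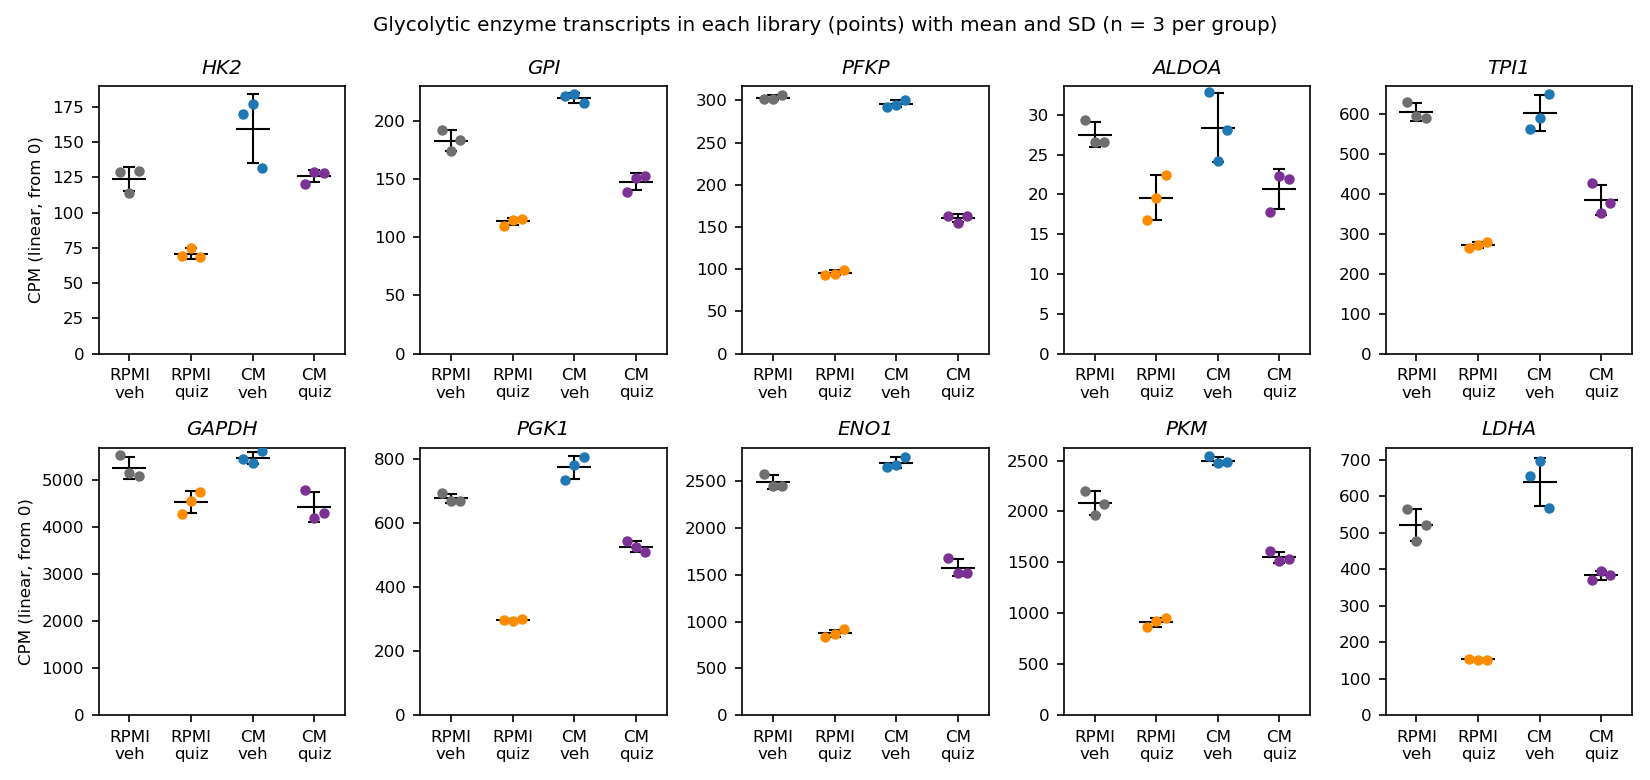
CPM of each enzyme in each library (points, linear axes from 0) by group, with the group mean and SD (n = 3); RPMI or hBMSC-CM (CM), vehicle (veh) or quizartinib (quiz). Quizartinib libraries lie below the vehicle libraries of the same medium for all 10 enzymes, and for HK2 the hBMSC-CM quizartinib libraries lie among those of RPMI vehicle. Of all tested genes 39.4% in RPMI and 33.6% in hBMSC-CM were called lower, and the share separated without overlap is not given.

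In hBMSC-CM quizartinib again lowered all 10 enzymes, with a median log2 fold change of -0.61 beside 0.01 over all genes, where 33.6% of tested genes were called lower and 33.5% higher. LDHA went from 655, 698 and 568 CPM to 371, 395.5 and 385 CPM, a change of -0.74 ± 0.06 (edgeR, adjusted p = 1.61e-09). PFKP went from 292, 295 and 300.5 CPM to 163, 155 and 163.5 CPM, a change of -0.88 ± 0.04 (edgeR, adjusted p = 6.34e-14), the largest of the 10 in this medium. ENO1 went from 2654, 2676 and 2766 CPM to 1681, 1524 and 1519 CPM, a change of -0.78 ± 0.05 (edgeR, adjusted p = 2.64e-11). The groups did not overlap for any of these genes, and the share of the vehicle level left was larger than in RPMI: 59.9% beside 29.2% for LDHA, 54.3% beside 31.5% for PFKP, and 58.4% beside 35.1% for ENO1.

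PKM went from 2544, 2472 and 2482 CPM to 1612, 1514 and 1529 CPM (62.1% left, edgeR, adjusted p = 1.82e-10), PGK1 from 735, 779.6 and 806 CPM to 543, 523 and 509.7 CPM (68.0% left, adjusted p = 4.22e-10), and TPI1 from 562, 590 and 650.1 CPM to 426, 351 and 376 CPM (64.0% left, adjusted p = 7.48e-09). HK2 stood at 169.8, 177 and 132 CPM with vehicle and 121, 129 and 128 CPM with quizartinib. Vehicle replicate 3 lay just above the treated libraries, and the change was -0.34 ± 0.08 (edgeR, adjusted p = 4.66e-04). GPI fell from 221, 224 and 215 CPM to 139, 151 and 153 CPM, by 0.58 ± 0.05 (edgeR, adjusted p = 5.71e-10). GAPDH changed by -0.31 ± 0.06 and ALDOA by -0.48 ± 0.11 (edgeR, adjusted p = 9.94e-05 and 4.71e-04), the former from 5445, 5379 and 5624 CPM to 4801, 4195 and 4297 CPM.

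Whether the response to quizartinib differed between the media was tested with the interaction term of the same model, the log2 change in hBMSC-CM minus that in RPMI. It was called positive for 7 of the 10 enzymes and negative for none, with a median of 0.51 beside 0.02 over all genes, where 26.4% of tested genes were called positive and 18.8% negative. The difference was 1.04 ± 0.09 for LDHA (edgeR, adjusted p = 5.06e-09), 0.78 ± 0.06 for PFKP (adjusted p = 2.59e-10), 0.73 ± 0.07 for ENO1 (adjusted p = 3.57e-08) and 0.63 ± 0.06 for PGK1 (adjusted p = 3.67e-08). TPI1, PKM and HK2 followed with 0.52 ± 0.09, 0.50 ± 0.07 and 0.46 ± 0.11 (edgeR, adjusted p = 4.74e-05, 7.61e-06 and 0.00176). The 3 enzymes not called were GPI at 0.11 ± 0.07, ALDOA at 0.02 ± 0.15 and GAPDH at -0.09 ± 0.08 (edgeR, adjusted p = 0.164, 0.917 and 0.399), and these were also the 3 with the smallest changes in RPMI.

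Set as a ratio, the log2 change in hBMSC-CM was 0.42 of that in RPMI for LDHA, 0.43 for HK2, 0.47 for PGK1, 0.51 for ENO1, 0.53 for PFKP, 0.56 for TPI1 and 0.58 for PKM. For GPI it was 0.83, for ALDOA 0.95 and for GAPDH 1.42. The median ratio was 0.54 over the 10 enzymes (0.53 without ALDOA) and 0.49 over the 5125 genes called lower with quizartinib in RPMI. The smaller response in hBMSC-CM was thus of a size common among the genes that fell in RPMI, and nothing particular to glycolysis can be read from the ratio.

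**Figure D3:**
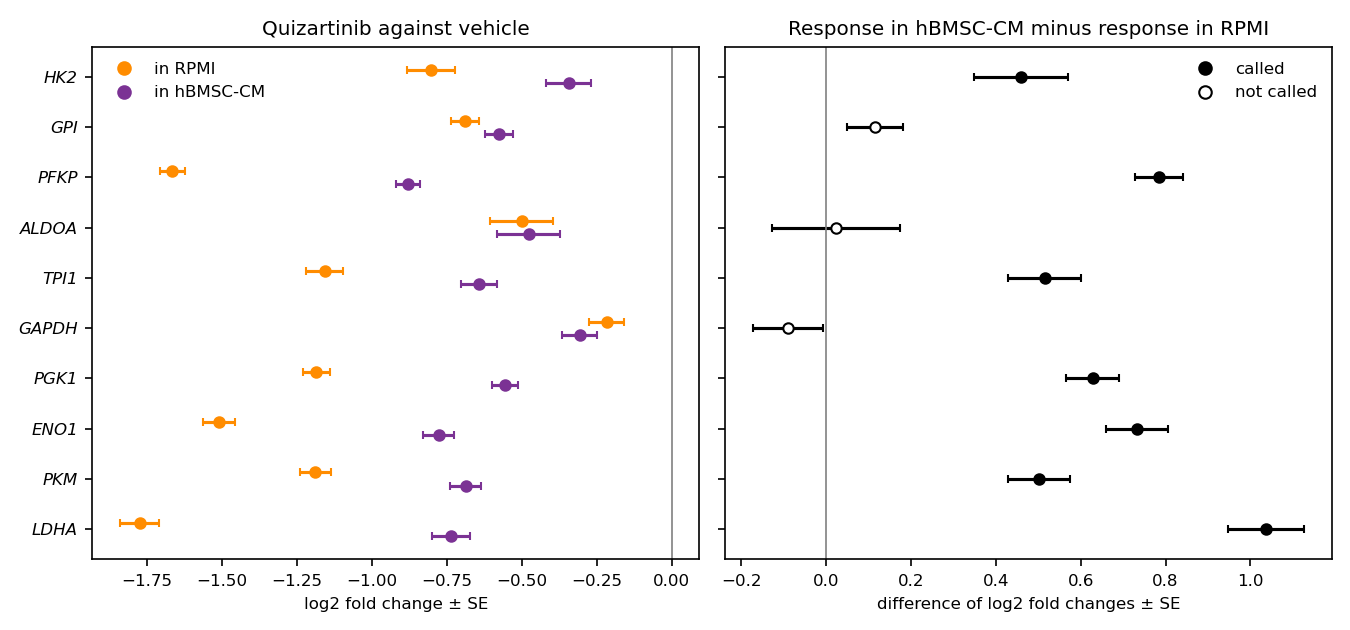
Left, log2 fold change ± SE of quizartinib against vehicle for each enzyme in RPMI (orange) and hBMSC-CM (purple); right, the difference of both changes ± SE from the interaction term, filled where called at adjusted p under 0.05. The difference was called for 7 enzymes, all with a smaller change in hBMSC-CM and LDHA with the largest gap (-1.78 and -0.74), and was not called for GPI, ALDOA and GAPDH.

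With quizartinib in both arms, hBMSC-CM had 8 of the 10 enzymes at a higher level than RPMI and none at a lower one, with a median log2 difference of 0.76 beside 0.01 over all genes, where 35.9% of tested genes were called higher and 33.9% lower. LDHA differed most, at 1.33 ± 0.07 (edgeR, adjusted p = 1.01e-13), from 152 ± 1.15 to 384 ± 12.4 CPM (SD, n = 3). ENO1 differed by 0.85 ± 0.05, HK2 by 0.82 ± 0.08, PGK1 by 0.82 ± 0.04, PKM by 0.77 ± 0.05 and PFKP by 0.75 ± 0.04 (edgeR, the largest adjusted p of these was 7.07e-09). TPI1 differed by 0.51 ± 0.06 and GPI by 0.38 ± 0.05 (edgeR, adjusted p = 2.55e-07 and 3.50e-07). ALDOA, at 0.08 ± 0.11, and GAPDH, at -0.03 ± 0.06, were not called (edgeR, adjusted p = 0.545 and 0.637), and the libraries of both groups overlapped.

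Without quizartinib the medium alone made smaller differences. HK2, GPI, PGK1, PKM and LDHA were higher in hBMSC-CM, and none of the 10 was called lower, where 16.6% of tested genes were called higher and 15.5% lower. The median log2 difference was 0.15 over the 10 enzymes and -0.003 over all genes. The 5 differences were 0.37 ± 0.08 for HK2, 0.30 ± 0.06 for LDHA, 0.27 ± 0.05 for PKM, 0.26 ± 0.05 for GPI and 0.19 ± 0.04 for PGK1 (edgeR, adjusted p = 9.10e-04, 0.00107, 4.20e-04, 1.52e-04 and 0.00179). ENO1 was at 0.11 ± 0.05 (edgeR, adjusted p = 0.0922), and it passed the threshold with DESeq2, without the filter on low counts and without the library hBMSC-CM quizartinib replicate 1. PFKP at -0.04 ± 0.04, TPI1 at -0.01 ± 0.06, GAPDH at 0.06 ± 0.06 and ALDOA at 0.05 ± 0.10 were not called (edgeR, adjusted p from 0.478 to 0.924).

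Set against untreated cells in plain medium, cells given both hBMSC-CM and quizartinib had 9 of the 10 enzymes lower and none higher, with a median log2 difference of -0.42 beside 0.01 over all genes. In this comparison 31.4% of tested genes were called lower and 30.6% higher. PFKP remained furthest below, at 53.0% of the RPMI vehicle level, followed by ENO1 at 63.2% and TPI1 at 63.6%, while LDHA was at 73.6%, PKM at 74.7%, PGK1 at 77.7% and GPI at 80.6%. HK2 was the exception, at 121, 129 and 128 CPM beside 129, 114 and 129 CPM in RPMI vehicle. Its difference was 0.02 ± 0.08 (edgeR, adjusted p = 0.827), with overlapping libraries. LDHA and PFKP, which had changed by -1.78 and -1.67 with quizartinib in RPMI, stood at -0.44 ± 0.06 and -0.92 ± 0.04 from the untreated level when both treatments were given, and the difference between these genes was not tested.

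Several steps can be run by more than 1 gene. Of 20 genes for isozymes and remaining steps, 11 passed the filter on low counts. The other 9, among them the testis forms GAPDHS and PGK2, had at most 39 counts in any library (HK3). With quizartinib in RPMI 7 of the 11 fell and 1 rose, and in hBMSC-CM 4 fell and 2 rose. The shares called over all tested genes were 39.4% lower and 39.8% higher in RPMI, and 33.6% and 33.5% in hBMSC-CM. The median log2 changes of the 11 were -0.38 and -0.13, closer to 0 than those of the 10 enzymes. Both lists were chosen with earlier results of these data known, so this difference only describes the lists and was not tested. With quizartinib in both arms 8 of the 11 were higher in hBMSC-CM and 1 was lower, and without it 3 were higher and 1 lower. The interaction was called positive for 5 and negative for none. Between the media 35.9% of all tested genes were called higher and 33.9% lower with quizartinib, and 16.6% and 15.5% without it. The interaction was called positive for 26.4% of all tested genes and negative for 18.8%.

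PGAM1 is the phosphoglycerate mutase between PGK1 and ENO1. It fell from 236 ± 2.42 to 91.2 ± 5.84 CPM in RPMI (SD, n = 3), by 1.38 ± 0.06 on the log2 scale, and from 259.7 ± 5.79 to 159.6 ± 14.1 CPM in hBMSC-CM, by 0.70 ± 0.05 (edgeR, adjusted p = 1.17e-15 and 2.71e-10), with an interaction of 0.67 ± 0.08 (adjusted p = 2.67e-07). PGAM4, a near copy of PGAM1 that may take some of its reads, fell in RPMI by 0.85 ± 0.26 at a low level (0.923 ± 0.129 CPM per kb with vehicle, SD, n = 3). BPGM, which makes 2,3-bisphosphoglycerate, fell in RPMI by 0.34 ± 0.09 and in hBMSC-CM by 0.24 ± 0.09 (edgeR, adjusted p = 0.00268 and 0.0285). ENO2, the neuronal enolase, fell by 0.99 ± 0.14 and 0.68 ± 0.12, and ENO3, the muscle form, was at -0.09 ± 0.11 in RPMI and rose by 0.39 ± 0.11 in hBMSC-CM (edgeR, adjusted p = 0.483 and 0.00327). ALDOC and ADPGK were not called in either medium.

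The mix of phosphofructokinases changed with quizartinib in both media. PFKL, the liver form, fell in RPMI from 262 ± 2.62 to 201 ± 11.9 CPM (SD, n = 3), by 0.38 ± 0.05 on the log2 scale, but rose in hBMSC-CM from 292.5 ± 8.11 to 339.6 ± 14.9 CPM, by 0.22 ± 0.05 (edgeR, adjusted p = 1.50e-07 and 3.23e-04), and the difference of 0.60 ± 0.07 was called (adjusted p = 1.64e-07). PFKP, which fell in both media, supplied 55.9% ± 0.414 of the phosphofructokinase level per kb in RPMI vehicle and 34.2% ± 0.793 in RPMI quizartinib (SD, n = 3), and 52.7% ± 0.415 and 34.3% ± 0.412 in hBMSC-CM. The shares in the vehicle and quizartinib libraries did not overlap in either medium, and between the quizartinib groups they differed by 0.0762 percentage points. The exact permutation test of 3 against 3 libraries, two-sided, gave p = 0.1 for each change with quizartinib, the smallest p it allows, and p = 0.8 between the quizartinib groups. The conditioned medium thus raised PFKP and PFKL together under quizartinib, by 0.75 ± 0.04 and 0.76 ± 0.05 on the log2 scale (edgeR, adjusted p = 6.49e-13 and 4.97e-12). PFKM, the muscle form, rose in RPMI by 0.51 ± 0.16 (edgeR, adjusted p = 0.00668) and was at 0.17 ± 0.20 in hBMSC-CM, but held at most 0.848% of the level in any library.

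For hexokinase, HK1 exceeded HK2 per kb in every group. HK1, the constitutive form, fell by 0.44 ± 0.04 in RPMI and 0.28 ± 0.04 in hBMSC-CM (edgeR, adjusted p = 4.36e-09 and 5.52e-06), beside 0.80 ± 0.08 and 0.34 ± 0.08 for HK2. The HK2 share was 34.7% ± 1.91 in RPMI vehicle and 29.2% ± 1.14 in RPMI quizartinib (SD, n = 3, exact permutation p = 0.1), and 33.4% ± 2.70 and 32.5% ± 0.240 in hBMSC-CM (p = 0.5). For lactate dehydrogenase, LDHB, the heart form, fell in RPMI by 0.48 ± 0.09 and was at -0.13 ± 0.08 in hBMSC-CM (edgeR, adjusted p = 4.23e-05 and 0.179). The LDHA share was 95.0% ± 0.951 in RPMI vehicle, 88.6% ± 0.403 in RPMI quizartinib, 95.3% ± 0.634 in hBMSC-CM vehicle and 93.1% ± 0.479 in hBMSC-CM quizartinib. Of the LDHB transcript 76.5% is shared with another annotated gene on the same strand, ENSG00000285854, so its level, and with it the LDHA share, is uncertain in the way of ALDOA, with the same limits of the annotation.

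**Figure D4:**
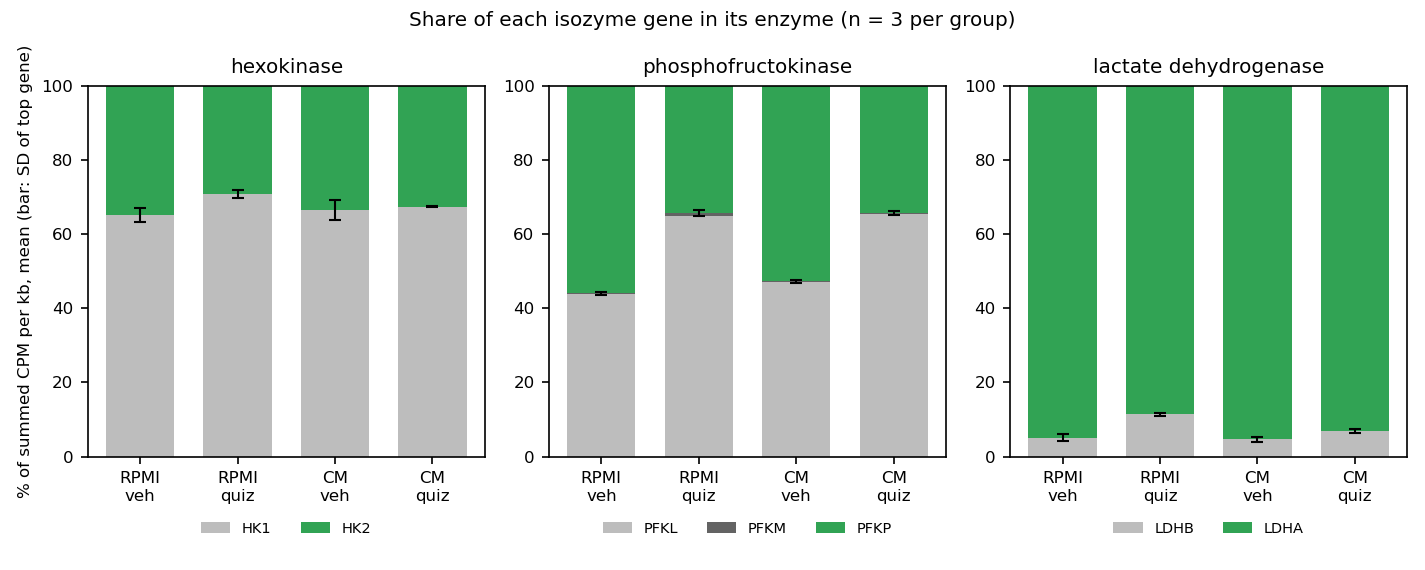
Mean share of each gene in the summed CPM per kb of its enzyme (stacked bars from 0 to 100%, 3 libraries per group; black bars, SD of the share of the green gene). The PFKP share is 55.9% and 52.7% in the vehicle groups and 34.2% and 34.3% in the quizartinib groups, whereas the LDHA share moves from 95.0% to 88.6% and the HK2 share from 34.7% to 29.2% with quizartinib in RPMI.

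Transporters bring glucose into the cell and carry lactate out of it. Of 10 genes listed for transport 8 passed the filter, and with quizartinib 5 fell and 2 rose in RPMI, and 3 fell and 1 rose in hBMSC-CM. Over all tested genes 39.4% were called lower and 39.8% higher in RPMI, and 33.6% and 33.5% in hBMSC-CM. SLC2A3 encodes GLUT3, a high-affinity glucose transporter. It fell from 75.7 ± 1.45 to 19.5 ± 0.930 CPM in RPMI (SD, n = 3) and from 118 ± 0.967 to 76.1 ± 3.07 CPM in hBMSC-CM, by 1.96 ± 0.05 and 0.63 ± 0.04 on the log2 scale (edgeR, adjusted p = 7.20e-19 and 5.17e-11). The interaction of 1.32 ± 0.07 was larger in value than that of any of the 10 enzymes (edgeR, adjusted p = 8.98e-13), and the treated level in hBMSC-CM differed from RPMI vehicle by 0.01 ± 0.04 (adjusted p = 0.876), as for HK2. SLC16A1 and SLC16A3, the lactate transporters MCT1 and MCT4, fell by 1.66 ± 0.04 and 1.01 ± 0.06 in RPMI and by 0.71 ± 0.04 and 0.53 ± 0.06 in hBMSC-CM (edgeR, the largest adjusted p of these was 7.05e-08).

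SLC2A1, which encodes the widely expressed GLUT1, was raised by the medium more than it was lowered by the drug. It stood at 50.8 ± 2.67 CPM in RPMI vehicle, 39.6 ± 0.794 in RPMI quizartinib, 81.5 ± 0.958 in hBMSC-CM vehicle and 78.7 ± 0.622 in hBMSC-CM quizartinib (SD, n = 3). The medium raised it by 0.68 ± 0.05 with vehicle and 0.99 ± 0.05 with quizartinib (edgeR, adjusted p = 2.87e-10 and 5.28e-14), and the change with quizartinib was -0.36 ± 0.05 in RPMI and -0.05 ± 0.04 in hBMSC-CM (adjusted p = 5.73e-07 and 0.326). SLC2A5, the fructose transporter GLUT5, went the other way and rose by 1.30 ± 0.06 in RPMI and 0.33 ± 0.05 in hBMSC-CM (edgeR, adjusted p = 6.69e-15 and 1.38e-05). BSG (basigin), the chaperone of the lactate transporters, was not called in any comparison.

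Among the regulators of flux, 4 of 9 genes passed the filter, and all 4 rose with quizartinib in RPMI and 3 in hBMSC-CM, where 39.8% and 33.5% of all tested genes were called higher. Their median log2 changes were 0.62 and 0.58, over few genes. TXNIP, which lowers glucose uptake, rose from 137 ± 6.42 to 481 ± 0.420 CPM in RPMI and from 136 ± 4.61 to 291 ± 15.7 CPM in hBMSC-CM (SD, n = 3), by 1.81 ± 0.05 and 1.10 ± 0.05 on the log2 scale, with an interaction of -0.71 ± 0.07 (edgeR, adjusted p = 8.54e-19, 2.74e-14 and 1.26e-08). PFKFB3, the kinase that makes the phosphofructokinase activator fructose 2,6-bisphosphate, rose with the drug by 0.50 ± 0.05 and 0.53 ± 0.05 and with the medium by 0.63 ± 0.05 with vehicle and 0.66 ± 0.05 with quizartinib (edgeR, the largest adjusted p of these was 2.33e-08). Its interaction was 0.03 ± 0.07 (adjusted p = 0.744), so that the cells given both stood 1.16 ± 0.05 above RPMI vehicle. TIGAR, which degrades the same activator, rose by 0.57 ± 0.07 and 0.63 ± 0.07, and 20.8% of its transcript is shared with another gene on the same strand. PFKFB4 rose in RPMI by 0.68 ± 0.08 and was at 0.17 ± 0.08 in hBMSC-CM (edgeR, adjusted p = 9.74e-08 and 0.0646).

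Beyond pyruvate, 13 of 14 genes for its entry into mitochondria passed the filter, and with quizartinib 7 fell and 4 rose in RPMI and 6 fell and 3 rose in hBMSC-CM, with medians of -0.12 and -0.14. Among all tested genes 39.4% were called lower and 39.8% higher in RPMI, and 33.6% and 33.5% in hBMSC-CM. DLAT, a subunit of the pyruvate dehydrogenase complex, fell from 183 ± 2.61 to 82.4 ± 2.72 CPM in RPMI and from 214 ± 2.88 to 141 ± 9.89 CPM in hBMSC-CM (SD, n = 3), by 1.15 ± 0.05 and 0.60 ± 0.05 on the log2 scale (edgeR, adjusted p = 1.99e-15 and 2.87e-10). PDK2, a kinase that inhibits the complex, rose by 1.45 ± 0.06 and 0.98 ± 0.07 (edgeR, adjusted p = 5.65e-15 and 1.17e-10), though 62.8% of its transcript overlaps a gene on the opposite strand. PDP2, a phosphatase that activates it, and PC, pyruvate carboxylase, fell in RPMI by 0.90 ± 0.06 and 0.84 ± 0.08 (edgeR, adjusted p = 1.61e-11 and 1.77e-09). Other genes of the same functions went the other way. PDP1, also an activating phosphatase, rose by 0.59 ± 0.05 in RPMI and 0.49 ± 0.05 in hBMSC-CM. PDK1, also an inhibiting kinase, fell by 0.34 ± 0.07 and 0.40 ± 0.06 (edgeR, the largest adjusted p of these was 7.94e-05). The kinase PDK3 rose in RPMI by 0.22 ± 0.06 (edgeR, adjusted p = 0.00223). Of the other subunits, PDHA1 fell in RPMI by 0.67 ± 0.04 (edgeR, adjusted p = 1.61e-12), and PDHB and PDHX were not called there.

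In the pentose phosphate pathway, which branches off before GPI acts, 7 of 8 genes were in the table under the symbols searched and all 7 were tested. With quizartinib 3 rose and 3 fell in RPMI, and 2 rose and 3 fell in hBMSC-CM, with medians of 0.06 and -0.07. Calls over all tested genes were 39.8% higher and 39.4% lower in RPMI, and 33.5% and 33.6% in hBMSC-CM. RPIA, the ribose 5-phosphate isomerase, fell by 1.38 ± 0.07 and 0.55 ± 0.07 (edgeR, adjusted p = 1.17e-13 and 2.60e-07), and its interaction was 0.83 ± 0.10 (adjusted p = 4.76e-07).

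**Figure D5:**
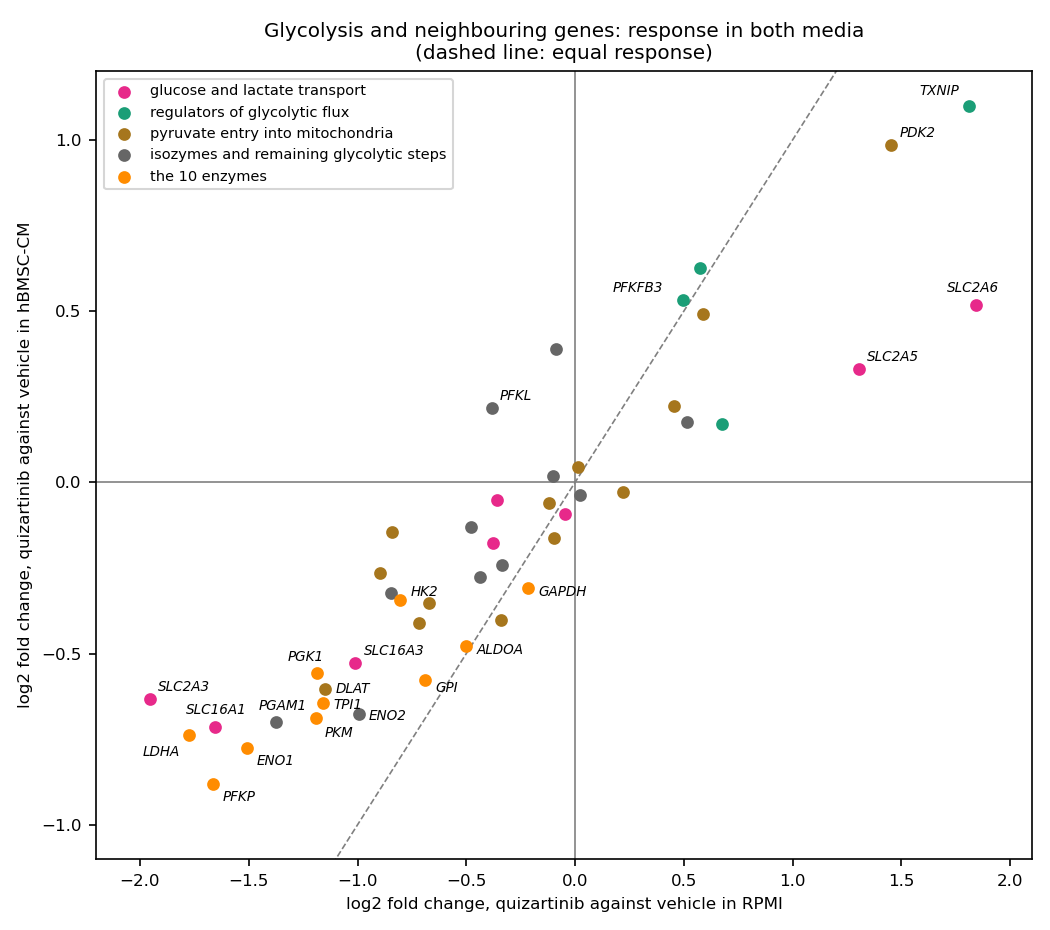
Log2 fold change with quizartinib in hBMSC-CM (y) against that in RPMI (x) for each tested gene of glycolysis and of the neighbouring lists (colors), with the dashed line marking an equal response. The 10 enzymes, SLC2A3 and SLC16A1 lie at the lower left, most of them above the line, and TXNIP, PDK2, SLC2A5 and SLC2A6 at the right below it.

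The pattern of the 10 enzymes over the 4 groups was also compared with that of the other genes. The mean log2 CPM of the enzymes, centred on its mean over the groups, was 0.34 in RPMI vehicle, -0.73 in RPMI quizartinib, 0.49 in hBMSC-CM vehicle and -0.10 in hBMSC-CM quizartinib. Within the set PGK1, TPI1 and PKM lay nearest to this mean, at root mean square distances of 0.0727, 0.0812 and 0.0837, and GAPDH and LDHA furthest, at 0.369 and 0.330, one flatter and the other steeper. Of 9271 other genes whose mean CPM reached 10, 323 lay within 0.1 of the mean of the enzymes over these 4 group means. The 5 nearest were TPI1P1, CTNNAL1, ERH, TIMM44 and PSPH, at 0.00834 to 0.0160. TPI1P1 is a pseudogene of TPI1, whose reads cannot be fully told apart from those of its parent. The likeness rests on 4 means and is a description.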

How the data were processed

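RNA-seq of MOLM-13 cells was used as deposited: whole-number counts per gene name, which the authors made by trimming with BBDuk, aligning to the human genome (hg38) with STAR 2.6.0a, counting reads per gene and summing identifiers of the same name. The deposited counts had not been normalized, and the strand setting is not stated. Reads that meet several genes cannot be reassigned.

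The 12 libraries were grouped by their labels. Genes were kept where both the mean count and the mean CPM reached 1 (12998 of 57353 names, 26781 of them without counts). TMM-scaled counts were fitted with edgeR 4.0.16 (glmQLFit, glmQLFTest) in R 4.3.3, in 1 model of 4 group means with 8 residual degrees of freedom. The 6 contrasts were tested two-sided with Benjamini-Hochberg adjustment over all genes kept, and calls needed an adjusted p under 0.05. SE came from the log2 fold change and its F statistic, and the script was tested on simulated data. Isozyme shares used CPM per kb of the canonical transcript. Lengths, positions and overlaps came from GENCODE v44, which is later than the Ensembl annotation the authors counted against, and promoters from RefSeq.

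The members and gene lists were chosen with earlier results of these data known. Named genes were the 10 enzymes, the tested genes of the glycolytic steps, the 3 called genes of largest change in each direction of the other lists, and the 5 nearest in pattern. BSG, PDHB and PDHX were added after their values were seen. Alternatives were other scalings (DESeq2 size factors, upper quartile, none), other filters, limma 3.58.1, DESeq2 1.42.0, the compared groups alone, a replicate block and leaving out each library. Libraries of a group differed by a chi-square per gene of 2.66 to 10.5, so none was a copy of another.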

Additional observations from a re-analysis of the deposited data

Results flagged for a closer look

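The response to quizartinib differed between the media by the interaction test (edgeR, adjusted p under 0.05) for 7 enzymes. The log2 change in hBMSC-CM minus that in RPMI was 0.46 for HK2, 0.78 for PFKP, 0.52 for TPI1, 0.63 for PGK1, 0.73 for ENO1, 0.50 for PKM and 1.04 for LDHA, positive in each. In all 7 the enzyme fell in both media and fell less in hBMSC-CM, and of all genes tested 26.4% were called positive. Groups of 3 libraries are too small for the test of single outlying libraries.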

How the results depend on the processing

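Of the 10 enzymes, 49 changes over the 6 comparisons were called, and 1119 of 1120 values of these under the alternatives kept their direction and their call. The exception was GAPDH with quizartinib in RPMI under upper-quartile scaling (-0.11). Leaving out each library kept all of the 588 refitted calls and moved none by over 1.5 times. Of the 11 changes that were not called, 6 changed sign at least once, all near 0. ALDOA, interaction, was -0.00197 under upper-quartile scaling and ran from -0.0775 to 0.153 over the left-out libraries. Without the filter on low counts GAPDH between media with quizartinib was 0.0392 and HK2 in hBMSC-CM quizartinib against RPMI vehicle was -0.00458. Over the left-out libraries these ran from -0.0937 to 0.00564 and from -0.0380 to 0.0518. ALDOA ran from -0.0749 to 0.152 between media with vehicle and from -0.0244 to 0.183 with quizartinib, and TPI1 from -0.0696 to 0.0370 with vehicle. The cause was not tested. The counts of genes called stayed within 1.5 times. Without scaling, the share of higher calls moved from 50.0% to 62.7% with quizartinib in hBMSC-CM (60.0% with the upper quartile) and from 49.3% to 62.0% for both treatments against RPMI vehicle, and the median of all genes shifted by 0.102 in the former. Same-numbered libraries of different groups had deviations that correlated at -0.23 to 0.10 (median -0.04, 18 pairs), so the numbers were not taken to pair them, and the replicate number as a block left the calls of the enzymes as they were in number (10 lower in RPMI and 10 in hBMSC-CM, 7 in the interaction) and changed the genes called in RPMI from 10299 to 10220. Without length scaling the LDHA share fell by 3.99 percentage points with quizartinib in RPMI in place of 6.41. The fit of only the groups compared gave no separate value for the interaction, which uses all 4.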

Other observations

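Genes of the hypoxia response, which shares targets with glycolysis, did not move as 1 group: of 20 listed, 15 passed the filter, and with quizartinib 10 rose and 5 fell in RPMI and 8 rose and 4 fell in hBMSC-CM, with medians of 0.36 and 0.24. Beside these counts, 39.8% of all tested genes were called higher and 39.4% lower in RPMI, and 33.5% and 33.6% in hBMSC-CM. VEGFA, the angiogenic growth factor, fell like the enzymes, from 47.1 to 19.3 CPM in RPMI (mean, n = 3) and from 69.7 to 38.0 CPM in hBMSC-CM, by 1.29 ± 0.06 and 0.87 ± 0.05 on the log2 scale (edgeR, adjusted p = 4.14e-15 and 3.71e-12). EPAS1, which encodes HIF-2 alpha, rose from 5.28 to 42.6 CPM in RPMI and from 5.50 to 12.1 CPM in hBMSC-CM, by 3.02 ± 0.09 and 1.12 ± 0.10, with an interaction of -1.90 ± 0.14 (edgeR, adjusted p = 6.96e-18, 4.91e-09 and 5.01e-10). BNIP3L, a mitophagy receptor, rose by 1.56 ± 0.04 and 0.92 ± 0.04, and PPFIA4 by 1.66 ± 0.07 and 1.13 ± 0.08 (edgeR, the largest adjusted p of these was 1.56e-10). DDIT4, an inhibitor of mTORC1, was raised by hBMSC-CM, by 1.46 ± 0.05 with vehicle and 1.78 ± 0.05 with quizartinib (edgeR, adjusted p = 2.29e-15 and 7.00e-18). With quizartinib DDIT4 fell by 0.60 ± 0.05 in RPMI and 0.28 ± 0.04 in hBMSC-CM (edgeR, adjusted p = 2.4e-10 and 1.4e-05). These are transcript levels, and mTORC1 activity was not tested.

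All 12 genes listed for glycogen metabolism were tested, and with quizartinib 3 rose and 3 fell in RPMI and 4 rose and 4 fell in hBMSC-CM, with medians of -0.02 and -0.03. The shares over all tested genes were 39.8% higher and 39.4% lower in RPMI, and 33.5% and 33.6% in hBMSC-CM. PHKB, a phosphorylase kinase subunit, rose in RPMI by 0.68 ± 0.05, and PGM2, a phosphoglucomutase, fell by 0.50 ± 0.04 (edgeR, adjusted p = 1.00e-11 and 3.05e-10). Of the stromal marker list only COL1A1, a collagen chain, passed the filter, and it was higher with quizartinib in both media. It stood at 4.59 ± 0.249 CPM beside 0.177 ± 0.0868 in RPMI and at 0.990 ± 0.141 beside 0.224 ± 0.0788 in hBMSC-CM (SD, n = 3).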
